A study of Mus musculus with 32 samples.

Results

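Gluconeogenesis makes glucose from pyruvate, lactate, amino acids and glycerol, and it is carried here by 10 genes: Pcx, Mdh1, Pck1, Pck2, Fbp1, G6pc, G6pc3, Slc37a4, Gpd1 and Ppargc1a. The genes were chosen by name for their place in the pathway, out of 47643 genes in the count table, by a rule that used no measured value but was set with earlier results of these data known. RNA was read in 32 libraries from the liver and the epididymal white adipose tissue (eWAT) of male C57BL/6 mice (C57BL/6J in the study's methods) that entered the experiment at 10 weeks of age. For 7 days the mice drank corticosterone (cort), the main glucocorticoid of rodents, or the dilute ethanol vehicle (veh), and ate a normal protein diet (NPD, 20% of kcal) or a high protein diet (HPD, 60% of kcal). Each tissue thus had a Veh NPD, a Veh HPD, a Cort NPD and a Cort HPD group of 4 libraries. All mice were wild type, all had eaten the NPD beforehand, and both diets took their protein from whey. The diets were matched in calories and sucrose, so that the HPD also held less corn starch, and the effect of more protein cannot be told apart from that of less starch.

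Between 8933307 and 18057936 reads were counted per library. Levels are given as CPM, a gene's share of the library total on the usual scale, after a TMM factor for each library that sets the bulk of genes level between libraries. The libraries read each transcript once near its 3′ end, so gene length does not enter a level and CPM can be set side by side between genes. Changes are log2 fold changes with a standard error (SE), and a gene was called where the adjusted p-value over all genes tested was under 0.05. Liver Veh HPD replicate 4 was left out of the tests by the rule that chose the genes. Its TMM factor was 1.45 in a fit of all 16 liver libraries. The other 15 had factors of 0.754 to 1.11 in a separate fit without it. The labels number the libraries of a group as replicates without naming the animal behind each, and p-values measure the spread between those libraries. In bulk tissue, fewer cells of a type and less RNA per cell cannot be told apart.

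The liver is the main site of gluconeogenesis in the fasted state. Pyruvate carboxylase (Pcx) turns pyruvate into oxaloacetate in the mitochondrion, malate dehydrogenases carry its carbon out as malate, and phosphoenolpyruvate carboxykinase (Pck1 in the cytosol, Pck2 in the mitochondrion) makes phosphoenolpyruvate. Fructose-1,6-bisphosphatase (Fbp1) and glucose-6-phosphatase reverse the irreversible steps of glycolysis, the latter together with the transporter Slc37a4, which brings glucose-6-phosphate into the endoplasmic reticulum. Adipose tissue has close to no G6pc, the main catalytic subunit of the last step in liver. There Pcx and Pck1 serve glyceroneogenesis, the making of glycerol-3-phosphate for triglycerides. Glucocorticoids and glucagon raise transcription of the pathway in liver and insulin lowers it, with Ppargc1a (PGC-1α) among the coactivators.

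Promoter windows of the genes on which the results turn are printed here, since the cAMP response element, glucocorticoid receptor and FOXO sites are known from promoters of this pathway. RefSeq windows on GRCm38.p6, of 250 bases before and 50 bases after an annotated start, were held for 9 of the 10 genes, and none for Gpd1. The strand of the gene is given 5′ to 3′, and capitals mark a match, on either strand, to TGACGT (the half-site of the cAMP response element), TGTTCT (a glucocorticoid receptor half-site), TGTTTAC (a FOXO site) or CACGTG (an E-box). No matches overlapped. The windows are Pck1 chr2:173152823-173153122 (+), Slc37a4 chr9:44396696-44396995 (+), Pcx chr19:4510222-4510521 (+) and chr19:4594069-4594368 (+), G6pc chr11:101367466-101367765 (+) and Fbp1 chr13:62888233-62888532 (−).
Pck1: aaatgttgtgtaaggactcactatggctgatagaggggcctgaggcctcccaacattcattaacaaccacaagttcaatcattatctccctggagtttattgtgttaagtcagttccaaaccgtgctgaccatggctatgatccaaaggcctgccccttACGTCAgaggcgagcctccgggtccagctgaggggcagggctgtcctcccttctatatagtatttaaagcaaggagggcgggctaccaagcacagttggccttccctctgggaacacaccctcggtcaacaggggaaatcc
Slc37a4, first of its windows: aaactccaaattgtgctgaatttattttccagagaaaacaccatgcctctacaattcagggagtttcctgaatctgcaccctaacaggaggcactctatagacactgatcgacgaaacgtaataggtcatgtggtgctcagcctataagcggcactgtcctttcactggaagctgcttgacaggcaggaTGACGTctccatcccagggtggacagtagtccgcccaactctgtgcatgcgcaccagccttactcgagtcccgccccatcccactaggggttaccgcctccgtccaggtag
Pcx, upstream start: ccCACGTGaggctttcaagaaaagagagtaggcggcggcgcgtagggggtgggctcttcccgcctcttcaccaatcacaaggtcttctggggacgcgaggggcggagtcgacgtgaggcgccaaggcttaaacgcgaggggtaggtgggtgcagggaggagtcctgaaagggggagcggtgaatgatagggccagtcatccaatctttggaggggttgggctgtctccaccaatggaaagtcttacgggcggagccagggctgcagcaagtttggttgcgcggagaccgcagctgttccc
Pcx, downstream start: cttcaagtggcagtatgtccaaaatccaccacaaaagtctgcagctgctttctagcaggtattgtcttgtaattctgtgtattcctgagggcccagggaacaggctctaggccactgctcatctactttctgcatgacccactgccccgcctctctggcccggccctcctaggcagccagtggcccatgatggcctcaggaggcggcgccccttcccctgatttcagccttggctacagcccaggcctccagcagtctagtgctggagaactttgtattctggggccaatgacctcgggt
G6pc: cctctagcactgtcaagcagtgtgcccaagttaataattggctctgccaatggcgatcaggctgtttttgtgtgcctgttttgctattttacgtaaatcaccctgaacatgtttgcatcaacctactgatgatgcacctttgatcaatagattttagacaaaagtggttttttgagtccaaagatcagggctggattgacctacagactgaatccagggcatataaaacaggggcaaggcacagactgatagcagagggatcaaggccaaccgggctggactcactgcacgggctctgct
Fbp1: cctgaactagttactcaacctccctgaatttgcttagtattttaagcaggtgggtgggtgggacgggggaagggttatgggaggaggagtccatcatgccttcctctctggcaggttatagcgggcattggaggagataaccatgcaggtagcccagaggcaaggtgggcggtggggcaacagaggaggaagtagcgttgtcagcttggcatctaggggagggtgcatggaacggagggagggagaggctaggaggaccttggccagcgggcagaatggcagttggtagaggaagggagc

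The cAMP response element half-site lay at position -91 from the Pck1 start and at position -61 from the first Slc37a4 start. It was also found in a Ppargc1a window at position -50, and 7.51% of all 32851 windows held it. The upstream Pcx window held an E-box at position -248, and 7.15% of windows held one. The glucocorticoid receptor half-site was found in 1 of the 12 windows of these genes, that of G6pc3, against 19.0% of all windows. The FOXO site was found in none of the 12, against 3.65% of all windows, and the printed G6pc and Fbp1 windows held none of the 4 motifs. A match describes letters and not a bound site. The lack of a match covers only these exact strings, in 250 bases before and 50 bases after an annotated start. Variant sites and sites farther away were not searched. Reads from the 3′ end do not tell which start was used.

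The genes lie apart in the genome (GRCm38): Pck1 at chr2:173153048-173159273, Pck2 at chr14:55540266-55551242, G6pc at chr11:101367561-101377903, G6pc3 at chr11:102189620-102194081 and Slc37a4 at chr9:44396852-44402968 on the plus strand. Pcx (chr19:4510472-4621752) and Gpd1 (chr15:99717515-99725005) are also on the plus strand, and Fbp1 (chr13:62864753-62888282), Ppargc1a (chr5:51454250-51567726) and Mdh1 (chr11:21556787-21572367) are on the minus strand. Whether the counting used strand is not given in the sources used here. Exons of Mdh1 overlap those of Wdpcp on the other strand, which had 1257 counts over all libraries, and those of Gpd1 overlap the antisense gene Gm16537 with 54 counts.

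The labelled tissues held their defining markers. Alb was at 33636 to 202190 CPM in liver and at 31.4 to 84.2 CPM in eWAT, and Adipoq was at 0.233 to 3.48 CPM in liver and at 3678 to 10148 CPM in eWAT. In eWAT, Fgb and Tat had a median of 0 CPM, while Cyp2e1, which fat also expresses, made up most of the sum of the 8 hepatocyte markers. That sum moved with the groups in liver. It was 85976 to 122455 CPM in Veh NPD and 76972 to 88958 in Veh HPD. Under cort it was 114428 to 137583 on the NPD and 154124 to 267522 on the HPD. All 8 markers had counts in each group. Alb alone had a mean of 77966 CPM in the 15 liver libraries, where the sum had a mean of 127827 CPM. Its share of all counts was 3.72 to 4.47% in Veh HPD and 9.69 to 15.2% in Cort HPD. The sum of 5 macrophage markers in liver was 57.8 to 86.3 CPM under veh and 29.8 to 56.4 CPM under cort. Exocrine pancreas markers in liver were at 109 CPM in Veh HPD replicate 1 and at most at 13.6 CPM in the others used. The left-out library held them at 152 CPM. Skeletal muscle markers were at 459 CPM in liver Cort NPD replicate 3 and at most at 41.7 CPM in the others used. In eWAT, Cort HPD replicate 4 held epididymis and testis markers at 8628 CPM, and 5 red blood cell markers summed to 12684 to 25856 CPM in Cort HPD against 3619 to 9273 CPM in the other groups. In liver the same 5 markers summed to 5271 to 7622 CPM in Cort HPD against 1358 to 3544 CPM in the other groups, also without overlap. Their part in the results below was not tested. Some of the results that rest on Cort HPD are given also without liver replicate 1 or without eWAT replicate 4. That liver replicate had the highest albumin share and the lowest TMM factor.

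In liver, cort on the NPD raised 3 of the 10 genes, Pcx, Slc37a4 and Fbp1, where 6.84% of 12391 genes were called higher and 12.6% in either direction. On the HPD it raised 2, Slc37a4 and G6pc, where 4.75% were called higher and 9.89% in either direction. The HPD lowered Pcx under cort, where 2.8% of genes were called lower and 5.88% in either direction. For diet under veh edgeR called none of the 10 (0.169% of all genes called). There 2 of the 10 had an unadjusted p under 0.05, as did 1165 of all 12391 genes. DESeq2 called those 2, G6pc and Gpd1, and the share of all genes that it called is not reported here. In eWAT, cort on the NPD raised Pcx and Mdh1 of 9 genes tested, where 4.05% of 15187 genes were called higher and 7.98% in either direction. The HPD lowered Pcx under cort, where 0.283% of genes were called lower and 0.487% in either direction. None of the 9 was called in eWAT for cort on the HPD (6.09%) or for diet under veh (0.0593%), and DESeq2 called 0 in both. For cort on the HPD 1 of the 9 had an unadjusted p under 0.05, as did 2872 of all 15187 genes. For diet under veh 3 of the 9 had, as did 1219 of all 15187 genes. G6pc was too low in eWAT to be tested. The comparisons of a tissue share groups, so their results do not stand apart from each other.

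**Figure D1:**
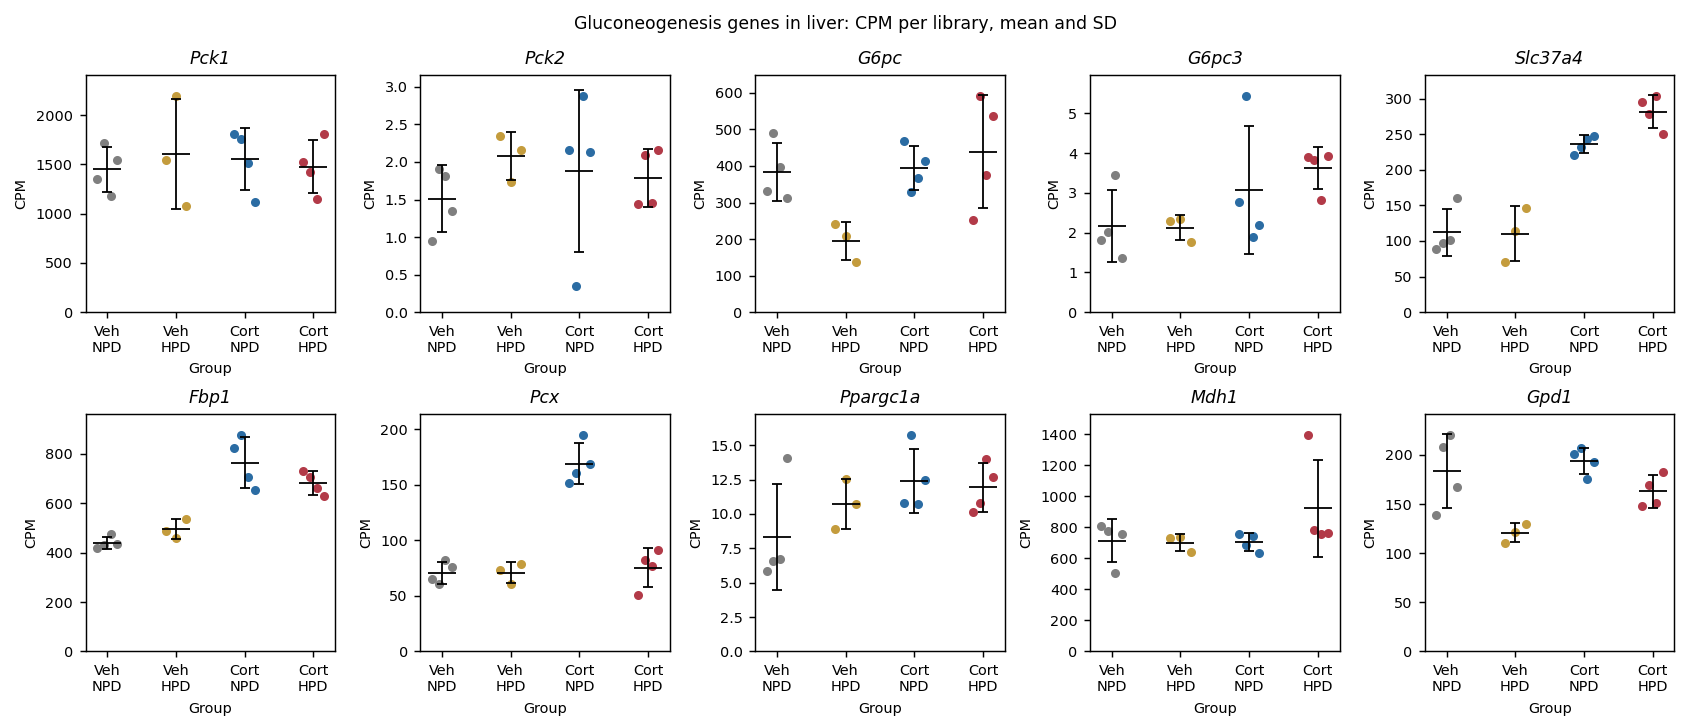
CPM of the 10 genes in the 15 liver libraries used, 1 point per library, with the mean (bar) and SD (whiskers) of each group; each panel has its own linear axis from 0. Pcx lay at 152 to 195 CPM in Cort NPD and at 50.6 to 91.0 CPM in all other groups, Slc37a4 lay at 220.5 to 303 CPM in the cort groups and at 70.8 to 160.4 CPM in the veh groups, and Pck1 overlapped between all groups.

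At the entry of pyruvate, Pcx was highest in Cort NPD in both tissues. In liver it was at 64.9, 60.3, 82.2 and 76.1 CPM in Veh NPD, at 73.4, 61.0 and 78.9 CPM in Veh HPD, at 152, 161, 195 and 169 CPM in Cort NPD, and at 50.6, 82.7, 77.4 and 91.0 CPM in Cort HPD. Each Cort NPD library stood above every library of the other groups, and those groups overlapped one another. Cort raised Pcx by 1.25 on the NPD (SE 0.17, adjusted p = 2.3e-05, edgeR) and its change on the HPD was 0.09 (95% interval -0.29 to 0.46). Under cort, Pcx on the HPD differed from the NPD by -1.16 (SE 0.17, adjusted p = 2.9e-04). Leaving out 1 library at a time gave -1.266 to -1.015, called in all 15 fits. Some of these fits left out a veh library, which does not enter this difference. Under veh the diet difference was 0.01 (-0.37 to 0.38). The difference between the cort changes on the diets, the interaction, was -1.17 (SE 0.24) and did not pass (adjusted p = 0.061, against 0.113% of genes called). It passed in 4 of 23 alternatives. These were DESeq2 (adjusted p = 0.0052), no filter on low counts (0.0091), the replicate number as a block (0.04999) and the fit without Cort HPD replicate 1 (-1.02, 0.048).

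In eWAT Pcx was at 361, 359, 259 and 318 CPM in Veh NPD, at 268, 212, 189 and 344 CPM in Veh HPD, at 516, 447, 464 and 456 CPM in Cort NPD, and at 251, 291, 222 and 239 CPM in Cort HPD. Cort NPD again stood above every other eWAT library. Cort raised it by 0.54 on the NPD (SE 0.15, adjusted p = 0.023), a call lost without Veh NPD replicate 3 (0.44, adjusted p = 0.106), Veh NPD replicate 4 (0.52, 0.063) or Cort NPD replicate 1 (0.49, 0.083). On the HPD its change was -0.01 (-0.32 to 0.29), and under cort the HPD value differed from the NPD value by -0.91 (SE 0.15, adjusted p = 0.0030). Without Cort HPD replicate 4 this was -0.89 (adjusted p = 0.0088). The eWAT interaction was -0.55 (SE 0.21) with an adjusted p of 0.86, against 0.0132% of genes called.

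Malate dehydrogenase 1 (Mdh1), the cytosolic enzyme that turns exported malate back into oxaloacetate, was abundant in both tissues. In eWAT it was at 405, 372, 335 and 345 CPM in Veh NPD, 317, 275, 283 and 498 CPM in Veh HPD, 566, 534, 540.1 and 439 CPM in Cort NPD, and 379, 403, 390.4 and 397 CPM in Cort HPD. All Cort NPD libraries were above all Veh NPD and Cort HPD libraries, and Veh HPD replicate 4 was the one other library in their range. Cort on the NPD raised Mdh1 by 0.51 (SE 0.15, adjusted p = 0.027). Leaving out 1 library at a time, the call was lost 5 times in 16: without Veh NPD replicate 3 (adjusted p = 0.084) or 4 (0.078), or Cort NPD replicate 1 (0.091), 2 (0.064) or 3 (0.070). On the HPD the change was 0.19 (-0.11 to 0.49), and 0.43 (adjusted p = 0.013) without Veh HPD replicate 4. Diet under cort gave -0.41 (SE 0.15, adjusted p = 0.32), and -0.41 (adjusted p = 0.049) without that same library.

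In liver Mdh1 was at 508 to 812 CPM in the veh and Cort NPD groups, and at 1393, 785, 756 and 765 CPM in Cort HPD. The Cort HPD value rested on replicate 1: the change with cort on the HPD was 0.40 (SE 0.21, adjusted p = 0.25) with it and 0.13 (adjusted p = 0.68) without it. On the NPD the cort difference was -0.02 (-0.41 to 0.38).

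The phosphoenolpyruvate step did not pass the test anywhere. Pck1, the cytosolic enzyme often taken as the marker of the pathway, was at 1354, 1717, 1185 and 1543 CPM in liver Veh NPD, at 1545, 2194 and 1077 CPM in Veh HPD, at 1809.6, 1763, 1516 and 1122 CPM in Cort NPD, and at 1529, 1421, 1153 and 1814 CPM in Cort HPD. All 4 groups overlapped. The cort difference in Pck1 was 0.10 on the NPD (-0.33 to 0.53) and -0.12 on the HPD (-0.58 to 0.34). The diet difference was 0.15 under veh (-0.31 to 0.61) and -0.07 under cort (-0.50 to 0.36). All 4 intervals lay between -0.58 and 0.61. Within-group spread was wide for so abundant a transcript, with 13683 to 27691 counts per library: the Veh HPD SD was 561 CPM about a mean of 1606 CPM.

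In eWAT, where Pck1 feeds glyceroneogenesis, its level was in a like range. It was at 1897, 2271, 1479.7 and 1494 CPM in Veh NPD, at 1644, 2029, 1944 and 2481 CPM in Veh HPD, at 1345, 1880.0, 1609 and 974 CPM in Cort NPD, and at 2105, 1819.8, 1364 and 1174 CPM in Cort HPD. The groups overlapped, with the lowest value in a Cort NPD library. The change with cort was -0.30 on the NPD (-0.73 to 0.13, adjusted p = 0.47) and -0.33 on the HPD (-0.76 to 0.11, adjusted p = 0.43).

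Pck2, the mitochondrial form, was scarce in liver, at 0.345 to 2.88 CPM or 4 to 42 counts, and made up 0.124% of the summed Pck1 and Pck2 counts on average (SD 0.050, n = 15). In the left-out liver library Veh HPD replicate 4 it was at 15.8 CPM. In eWAT it was at 14.7, 19.2, 10.2 and 17.4 CPM in Veh NPD, at 18.1, 24.2, 17.9 and 19.7 CPM in Veh HPD, at 17.7, 19.1, 20.7 and 16.8 CPM in Cort NPD, and at 22.8, 23.8, 31.6 and 28.0 CPM in Cort HPD. Cort HPD lay above Cort NPD without overlap, as it did for 3.02% of eWAT genes. The difference of 0.51 (SE 0.19) did not pass (adjusted p = 0.34).

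Fbp1, which removes a phosphate from fructose-1,6-bisphosphate, was expressed in liver and close to absent in eWAT. In liver it was at 417, 432, 476 and 435 CPM in Veh NPD, at 489, 461 and 538 CPM in Veh HPD, at 824, 875, 706 and 653 CPM in Cort NPD, and at 733, 708, 661 and 628 CPM in Cort HPD. Every cort library was above every veh library. Cort raised Fbp1 by 0.80 on the NPD (SE 0.14, adjusted p = 4.4e-04). On the HPD the change was 0.46 (SE 0.15) and missed the threshold (adjusted p = 0.054). It passed in 4 of 24 alternatives: DESeq2 (0.0069), limma voom (0.035), voom with sample quality weights (0.022) and all 16 liver libraries (0.039). The difference between those changes was -0.34 (-0.76 to 0.08). In eWAT, 9 of 16 libraries had no Fbp1 count and the highest had 1.45 CPM, so no fold is given there.

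At the last step, G6pc rose with cort on the HPD and Slc37a4 on both diets. The catalytic subunit G6pc was at 332, 491, 398 and 313 CPM in liver Veh NPD, at 240.0, 208 and 137 CPM in Veh HPD, at 469, 328, 368 and 414 CPM in Cort NPD, and at 253, 591, 375 and 536 CPM in Cort HPD. Veh HPD was the low group, and none of its libraries reached the lowest of any other group. Cort raised G6pc by 1.17 on the HPD (SE 0.26, adjusted p = 0.0059), by 1.36 without Cort HPD replicate 1 (adjusted p = 4.1e-04) and by 1.41 with all 16 liver libraries (0.0068). The library added in that last fit, Veh HPD replicate 4, held G6pc at 80.5 CPM, against 137 to 591 CPM in the other 15. Its hepatocyte markers summed to 40619 CPM, against 76972 to 267522 CPM in the other 15. On the NPD the change of G6pc with cort was 0.04 (-0.44 to 0.52). Under veh the diet difference was -0.98 (SE 0.25), which did not pass (adjusted p = 0.15). It passed in 2 of 24 alternatives, with DESeq2 (0.020) and without Cort HPD replicate 1 (0.044). Under cort the diet difference was 0.15 (-0.33 to 0.63). The interaction of 1.13 (SE 0.34) did not pass (adjusted p = 0.20).

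Slc37a4, the glucose-6-phosphate transporter, rose with cort on both diets. It was at 88.7, 97.1, 102 and 160.4 CPM in liver Veh NPD, at 70.8, 114 and 146 CPM in Veh HPD, at 220.5, 232, 244 and 248 CPM in Cort NPD, and at 295, 278, 303 and 250.0 CPM in Cort HPD. The cort libraries stood above all veh libraries, and those of Cort HPD above those of Cort NPD by a narrow margin at their edges (250.0 and 248 CPM). The rise of Slc37a4 with cort was 1.08 under the NPD (SE 0.20, adjusted p = 7.2e-04), and 1.35 under the HPD (SE 0.22, adjusted p = 3.2e-04). The diet difference under cort was 0.26 (-0.15 to 0.66) and the interaction 0.28 (-0.32 to 0.87), neither of which passed. Scaling by library totals alone, which moved the median of all genes to -0.24 for cort on the HPD, gave 1.11 for Slc37a4 (adjusted p = 0.0011) and 0.98 for G6pc (adjusted p = 0.045). The summed hepatocyte markers, to which Alb gave the largest part, were also higher in Cort HPD than in Veh HPD without overlap. So were the summed red blood cell markers, and the part of either sum in these changes was not tested. In eWAT the transporter was at 8.38 to 22.9 CPM, with a cort change of 0.24 on the NPD (-0.27 to 0.75) and -0.07 on the HPD (-0.58 to 0.44).

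G6pc3, the catalytic subunit found in most tissues, had the opposite tissue pattern to G6pc. It was at 15.4 to 38.4 CPM in eWAT and at 1.35 to 5.44 CPM in liver, while G6pc was at 137 to 591 CPM in liver and at 0 to 0.798 CPM in eWAT, with no count in 10 of 16 libraries. In liver G6pc3 made up 0.831% of the summed counts of both genes (SD 0.389, n = 15). Its change with cort in liver was 0.49 under the NPD (SE 0.34, adjusted p = 0.39), and 0.77 under the HPD (SE 0.36, adjusted p = 0.19), on 16 to 66 counts per library. In eWAT diet under veh gave -0.50 (SE 0.18, adjusted p = 0.40).

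Separation between groups is given as a description. With cort on the HPD, 6 of the 10 genes (G6pc, G6pc3, Slc37a4, Fbp1, Mdh1 and Gpd1) had every cort library above every veh library, where 10.7% of all genes did. With cort on the NPD 3 did (Slc37a4, Fbp1 and Pcx), where 9.4% of all genes did. Veh HPD had 3 libraries and the other groups 4, so that separation is easier to reach there. The median change of the 10 genes was 0.42 for cort under the NPD and 0.41 under the HPD, against -0.0052 and -0.0042 over all genes tested.

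**Figure D2:**
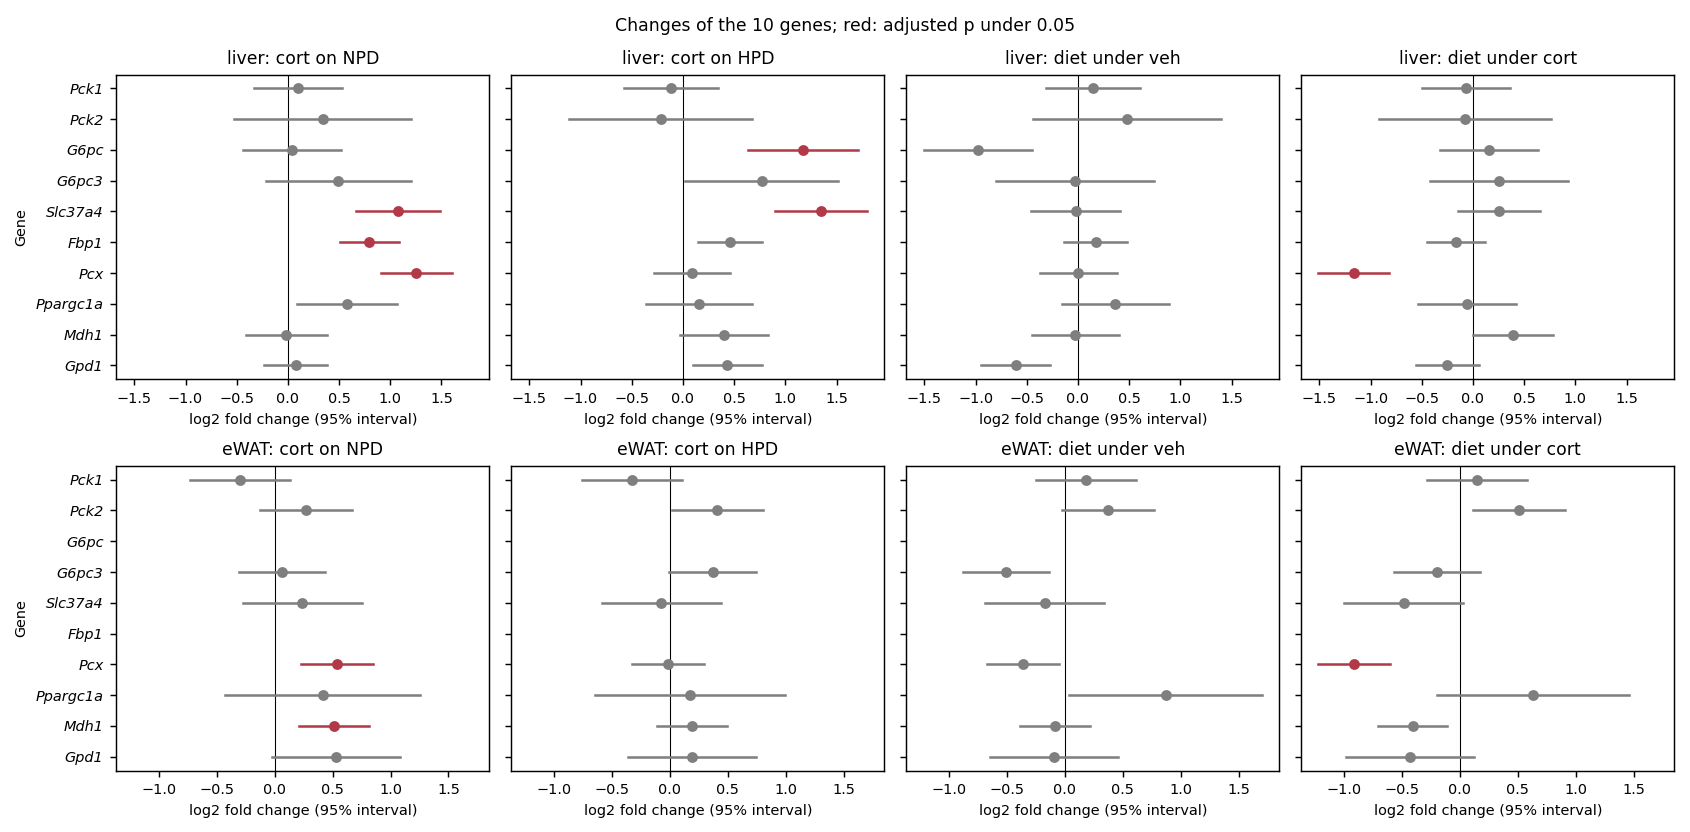
Log2 fold change (point) with its 95% interval (line) of each gene in 4 comparisons, liver above and eWAT below; red marks an adjusted p under 0.05. Pcx is the one gene called for diet under cort, at -1.16 in liver and -0.91 in eWAT, and G6pc and Fbp1 are left out in eWAT for their low counts.

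Glycerol-3-phosphate dehydrogenase 1 (Gpd1) links glycerol to the pathway in liver and makes glycerol-3-phosphate for triglycerides in fat. In liver it was at 139, 208, 219.8 and 168 CPM in Veh NPD, at 111, 122 and 129.7 CPM in Veh HPD, at 201, 207, 175 and 193 CPM in Cort NPD, and at 148, 169.7, 151 and 183 CPM in Cort HPD. As for G6pc, Veh HPD was the low group and did not overlap any other. The diet difference under veh was -0.61 (SE 0.16, adjusted p = 0.16) and passed in 1 of 24 alternatives (DESeq2, 0.027). Cort on the HPD gave 0.43 (SE 0.16, adjusted p = 0.096). G6pc and Gpd1 were the genes of the 10 that separated for diet under veh, both lower on the HPD, as 4.7% of all genes were.

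In eWAT Gpd1 was at 444, 347, 362 and 610.3 CPM in Veh NPD, at 342, 261, 325 and 726 CPM in Veh HPD, at 642, 612, 594 and 699.8 CPM in Cort NPD, and at 470.2, 523, 476 and 422 CPM in Cort HPD. Replicate 4 of both veh groups was far above its group. Cort on the NPD gave 0.53 (SE 0.26, adjusted p = 0.27), and 0.53 (SE 0.14, adjusted p = 0.013) without Veh HPD replicate 4, which enters the shared estimate of spread. Cort on the HPD gave 0.19 (SE 0.26, adjusted p = 0.76), and 0.61 (adjusted p = 0.011) without that library.

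The coactivator Ppargc1a was low in both tissues. In liver it was at 5.85, 6.58, 6.75 and 14.0 CPM in Veh NPD, at 8.93, 12.5 and 10.7 CPM in Veh HPD, at 10.8, 15.7, 10.8 and 12.5 CPM in Cort NPD, and at 10.2, 10.8, 14.0 and 12.7 CPM in Cort HPD. Veh NPD replicate 4 lay among the cort libraries and apart from the other 3 of its group. With it, cort on the NPD gave 0.58 (SE 0.23, adjusted p = 0.11), and without it 0.96 (SE 0.20, adjusted p = 0.0035). On the HPD the change was 0.16 (-0.36 to 0.67). In eWAT it was at 4.07 to 23.2 CPM, and diet under veh gave 0.87 (SE 0.40, adjusted p = 0.59), which was 0.29 (adjusted p = 0.98) without Veh HPD replicate 4, the library at 23.2 CPM.

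**Figure D3:**
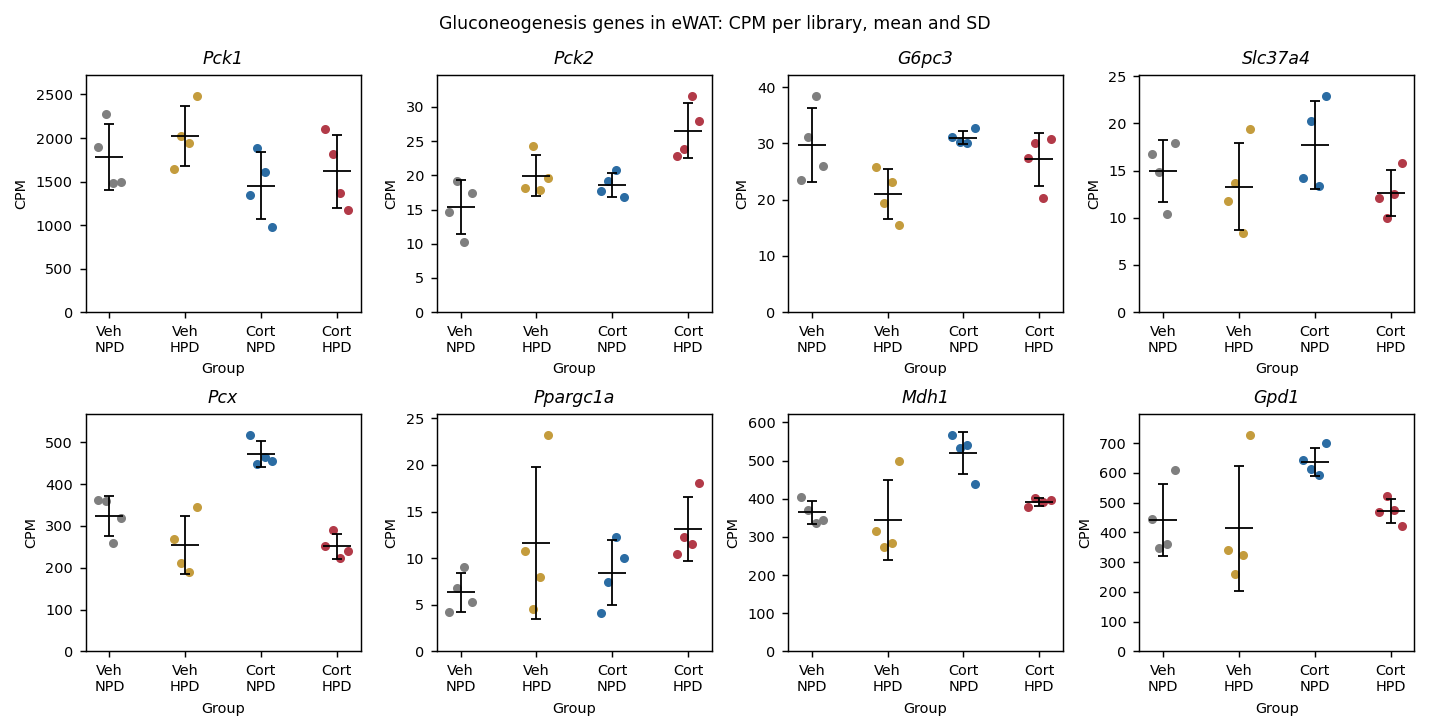
CPM of 8 of the genes in the 16 eWAT libraries, 1 point per library, with the mean (bar) and SD (whiskers) of each group; each panel has its own linear axis from 0, and G6pc and Fbp1, at 0 to 1.45 CPM, are not drawn. Pcx and Mdh1 were highest in Cort NPD, and Veh HPD replicate 4 stood apart at 23.2 CPM for Ppargc1a and 726 CPM for Gpd1.

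The difference of a change between liver and eWAT was tested over both tissues in 1 fit of 16482 genes. Slc37a4 was called for cort on the HPD, with a liver change above the eWAT change by 1.38 (SE 0.34, adjusted p = 0.017), where 1.11% of genes were called higher and 3.12% in either direction. Without liver Veh HPD replicate 1 it was 1.14 (adjusted p = 0.066). For cort on the NPD none of the 10 was called by edgeR (3.85% of genes called). An unadjusted p under 0.05 was found for 2 of the 10 and for 2721 of all 16482 genes. The 2 were Pcx at 0.76 (SE 0.24, adjusted p = 0.068) and Slc37a4 at 0.88 (SE 0.32, adjusted p = 0.14). Pcx was called there in 4 of 40 alternatives. These were DESeq2 (adjusted p = 0.037), voom with sample quality weights (0.021), only the groups compared in the fit (0.021) and the fit without liver Cort HPD replicate 1 (0.034). For diet under cort none was called by edgeR or DESeq2 (1.23% of genes called by edgeR). An unadjusted p under 0.05 was found there for 2 of the 10 and for 2517 of all 16482 genes. There Pcx differed between tissues by -0.30 (-0.78 to 0.19) and Mdh1 by 0.76 (SE 0.26, adjusted p = 0.14).

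Ratios of counts within a library do not depend on its scaling. In liver there were 4.79, 3.51, 6.94 and 4.93 Pcx counts per 100 Pck1 counts in Veh NPD, 4.75, 2.78 and 7.33 in Veh HPD, 8.40, 9.12, 12.8 and 15.1 in Cort NPD, and 3.31, 5.82, 6.71 and 5.01 in Cort HPD. Cort NPD did not overlap any other group. In eWAT the ratio was 15.8 to 21.3 in Veh NPD, 9.75 to 16.3 in Veh HPD, 23.8 to 46.9 in Cort NPD and 11.9 to 20.4 in Cort HPD, with Cort NPD again apart. A ratio shows unequal change of its genes and not which of them moved. No test was run on the ratios.

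Slc37a4 and G6pc act in 1 enzyme system, and their ratio differed widely among veh libraries. There were 26.7, 19.8, 25.5 and 51.3 Slc37a4 counts per 100 G6pc counts in Veh NPD and 29.5, 54.8 and 107 in Veh HPD. Under cort the ratio was 47.1 to 70.5 on the NPD and 46.6 to 117 on the HPD.

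**Figure D4:**
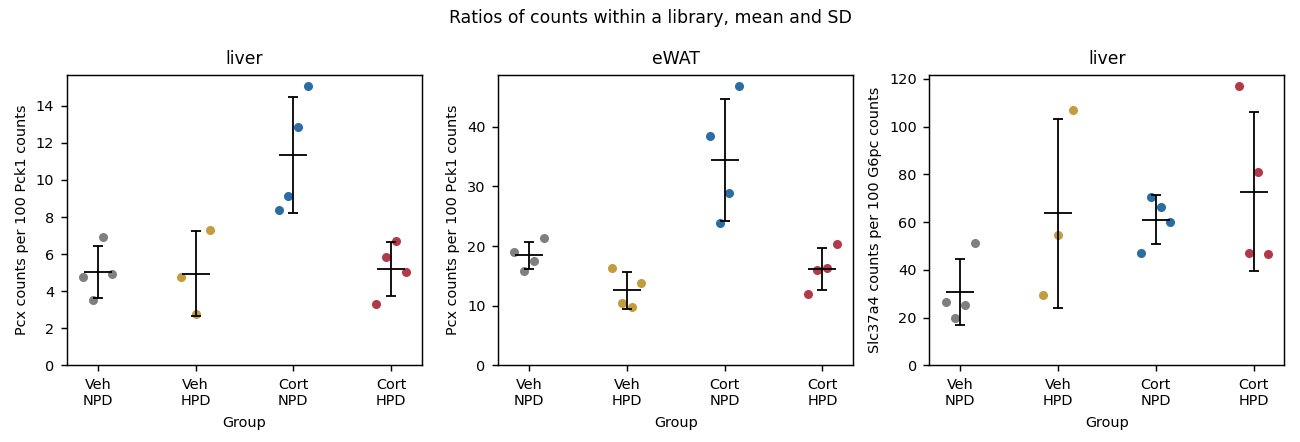
Counts of 1 gene per 100 counts of another in the same library, 1 point per library, with the mean (bar) and SD (whiskers) of each group; axes are linear from 0. Pcx per 100 Pck1 counts was highest in Cort NPD in both tissues, and Slc37a4 per 100 G6pc counts in liver ran from 19.8 to 51.3 in Veh NPD and from 47.1 to 70.5 in Cort NPD.

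The steps around the 10 genes were followed in a list of 60 genes: 11 enzymes shared with glycolysis, 20 of substrate entry, 19 regulators and 10 of the opposing steps. In liver, 15 of the 58 tested genes were called with cort on the NPD, 12 of them higher, where 12.6% of all genes were called and 6.84% higher. With cort on the HPD 11 were called, 6 of them higher, where 9.89% of all genes were called and 4.75% higher. The median change over the list was 0.11 and -0.04, against -0.0052 and -0.0042 over all genes. None of the 58 was called by edgeR for diet under veh (0.169% of all genes called) or for the interaction (0.113%). For diet under veh 11 of the 58 had an unadjusted p under 0.05, as did 1165 of all 12391 genes. For the interaction 7 of the 58 had, as did 1496 of all 12391 genes. In eWAT, of 56 tested genes, 11 were higher and 2 lower with cort on the NPD (7.98% of all genes called in either direction), and 9 higher and 1 lower with cort on the HPD (6.09%). Diet lowered 1 eWAT gene of the list under veh (0.0593% of all genes called in either direction) and 6 under cort (0.487%), and in liver under cort it raised 2 and lowered 2 (5.88%).

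Among the shared enzymes in liver, cort raised 4 of 10 tested on the NPD (6.84% of all genes called higher) and 3 on the HPD (4.75%), and lowered none. Gpi1, which interconverts glucose-6-phosphate and fructose-6-phosphate, rose by 1.71 and 1.18 (adjusted p = 2.4e-05 and 0.0035). In the substrate list cort on the NPD raised 5 of 19 and lowered 1, where 12.6% of all genes were called in either direction. Slc2a2, the glucose exporter of hepatocytes, rose by 0.999 (SE 0.20, adjusted p = 0.0017) and Mpc1, a subunit of the mitochondrial pyruvate carrier, fell by 0.64 (adjusted p = 0.049). On the HPD 1 of 19 passed, where 9.89% of all genes did: Slc25a12, a mitochondrial carrier of aspartate and glutamate, which rose by 0.97 (adjusted p = 0.0059).

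Of the 10 genes of the opposing steps, cort raised 2 on each diet, Pfkl and Pklr, where 6.84% (NPD) and 4.75% (HPD) of all genes were called higher. Pklr, the pyruvate kinase of liver, which runs against Pcx and Pck1, was at 62.9, 43.3, 74.4 and 78.0 CPM in Veh NPD, 36.4, 33.4 and 38.9 CPM in Veh HPD, 223, 168, 162 and 234 CPM in Cort NPD, and 59.1, 90.0, 38.3 and 73.6 CPM in Cort HPD. Like Pcx it was highest in Cort NPD without overlap. Its HPD change with cort was 0.85 (adjusted p = 0.030), a call lost without Cort HPD replicate 1 (0.89, adjusted p = 0.0501) or with all 16 liver libraries (1.17, 0.061). It rose with cort on the NPD by 1.61 (SE 0.22, adjusted p = 4.9e-05), and under cort the HPD value differed by -1.59 (SE 0.22, adjusted p = 2.9e-04). Pfkl, the liver phosphofructokinase that opposes Fbp1, rose on the HPD by 0.96 (SE 0.21, adjusted p = 0.0051).

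Of 19 regulators in liver, 3 were called with cort on the NPD, where 12.6% of all genes were: Crtc2 and Cebpb fell and the kinase gene Sik2 rose. On the HPD 4 were called, where 9.89% of all genes were, and Crtc2, Cebpb, Foxo3 and Trib3 all fell. Crtc2, a CREB coactivator that answers to glucagon, was at 4.35, 5.41, 4.93 and 10.8 CPM in Veh NPD, 14.2, 13.7 and 15.1 CPM in Veh HPD, 2.54, 2.24, 1.14 and 1.03 CPM in Cort NPD, and 10.1, 3.37, 3.14 and 4.01 CPM in Cort HPD. With cort it changed by -1.89 under the NPD (SE 0.41, adjusted p = 0.0051), and by -1.49 under the HPD (SE 0.39, adjusted p = 0.020), the latter not called with all 16 liver libraries (0.061). Under cort it was higher on the HPD by 1.57 (adjusted p = 0.032), and 1.03 (adjusted p = 0.074) without Cort HPD replicate 1. Cebpb, a transcription factor that binds the Pck1 promoter, fell by 0.93 on the NPD (adjusted p = 0.021) and by 1.44 on the HPD (adjusted p = 0.0021). Foxo1, the insulin-restrained activator of G6pc and Pck1, differed on the HPD under cort by -0.81 (SE 0.18, adjusted p = 0.0092), and Foxo3 fell with cort on the HPD by 0.73 (adjusted p = 0.011).

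In eWAT cort on the NPD called 3 of 11 shared enzymes, 4 of 20 genes of substrate entry, 1 of 18 regulators and 5 of 7 genes of the opposing steps. Over all genes tested, 7.98% were called in either direction. Aqp7, the channel through which adipocytes release glycerol, was at 100.3 to 145 CPM in Veh NPD, 129 to 147 CPM in Veh HPD, 62.5 to 82.0 CPM in Cort NPD and 55.9 to 69.8 CPM in Cort HPD. With cort it changed by -0.81 under the NPD (SE 0.13, adjusted p = 1.4e-04), and by -1.12 under the HPD (SE 0.13, adjusted p = 1.8e-06). Pfkfb3, which makes the fructose-2,6-bisphosphate that stimulates glycolysis, rose by 1.03 and 1.28 (adjusted p = 2.0e-04 and 1.4e-05), and hexokinase 2 (Hk2) by 0.87 and 0.55 (adjusted p = 5.3e-05 and 0.0082). Hexokinase 1 (Hk1) fell by 0.74 on the NPD (adjusted p = 0.031) and changed by -0.22 on the HPD (adjusted p = 0.66). Among the other genes called on the NPD, the mitochondrial dicarboxylate carrier Slc25a10 rose by 0.99, the pyruvate carrier subunit Mpc2 by 0.50 and the transcription factor Cebpa by 0.55 (adjusted p = 0.020, 0.019 and 0.013). With the HPD under cort, Mpc1 changed by -1.06 (SE 0.18, adjusted p = 0.0035) and Pfkl by -0.85 (SE 0.15, adjusted p = 0.0041). Gapdh changed with the HPD by -1.08 under veh (adjusted p = 2.9e-04) and by -0.89 under cort (adjusted p = 0.0020). Gapdh and aldolase A have many pseudogenes, so their counts are uncertain.

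**Figure D5:**
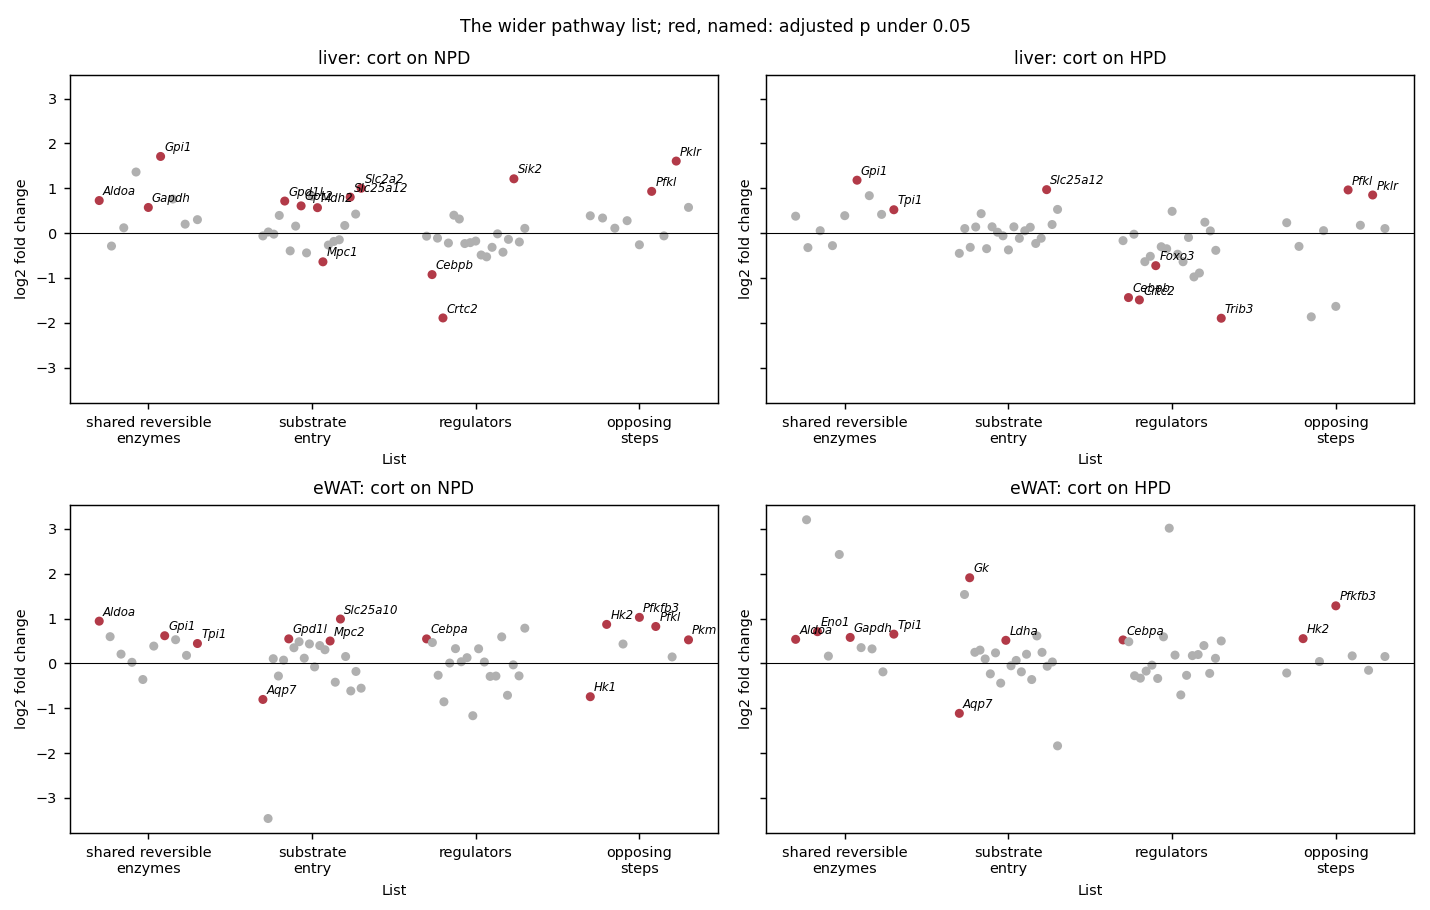
Log2 fold change with cort of tested genes of the 60-gene list, by sub-list, in liver (above) and eWAT (below) on each diet; red points with names have an adjusted p under 0.05 and grey points do not. Gpi1 lay at 1.71 and 1.18 in liver, and Crtc2 and Cebpb lay below 0 there on both diets.

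The genes whose pattern over the 15 liver libraries lay nearest to that of Pck1, by the mean absolute difference of z-scored log2 CPM, were Egln2 (0.371), Trim14 (0.511) and Spata5l1 (0.543), out of 12391 genes. Nearest to G6pc were Ppp1r10 (0.373) and E230016M11Rik (0.412). None of the 10 genes or of the 60 was among them, but so short a list cannot show how alike the patterns of the pathway genes are. In the 16 eWAT libraries Cebpg (0.340), Ces1d (0.447) and Podn (0.458) lay nearest to Pck1 out of 15187 genes. These are descriptions of the libraries with no test, and libraries of 1 group share their treatment.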

How the data were processed

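The deposited table held raw counts of 3′ QuantSeq reads per Ensembl gene for 32 libraries, made by the authors from reads on GRCm38. The aligner, counter and annotation release are not given in the sources used here, and the submitters' processing notes name R 4.0.3 and limma. Symbols came from GENCODE for 47224 of the 47643 genes.

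Genes were filtered with filterByExpr (minimum count 10, minimum total 15), scaled by TMM and tested with edgeR 4.0.16's quasi-likelihood test (robust) in R 4.3.3, with Benjamini-Hochberg adjustment over all genes tested: 12391 in liver (15 libraries), 15187 in eWAT (16) and 16482 over both tissues. SEs and 95% intervals follow from the F statistic. All 10 genes are reported, and from the 60-gene list up to 4 called genes per direction with the smallest p in a comparison. Other genes of that list (such as Slc25a10, Mpc2 and Cebpa) are named where a count was small or to show the other calls, and were chosen after their values were seen. A few genes are not reported here. Genes and lists were chosen with earlier results of these data known. Nearest patterns used log2 CPM with a prior count of 2. Depth was 8933307 to 18057936 counts per library. Alternatives were DESeq2 1.42.0, limma 3.58.1 (voom, with and without quality weights), other scalings, no filter, the replicate number as a block, fewer groups, all 16 liver libraries and each library left out. The steps were tested on simulated data with large changes in well-counted genes and the same spread for all genes. Smaller changes, and changes in genes of low count, were not simulated.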

Additional observations from a re-analysis of the deposited data

Results flagged for a closer look

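Of 62 groups of 4 libraries, 3 held a value far from the other 3, where chance flags about 5% of groups. In liver Cort HPD, G6pc3 was at 2.83 CPM in replicate 3 and at 3.84 to 3.94 CPM in the others. In liver Veh NPD, Ppargc1a was at 14.0 CPM in replicate 4 and at 5.85 to 6.75 CPM in the others. In liver Cort HPD, Mdh1 was at 1393 CPM in replicate 1 and at 756 to 785 CPM in the others.

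The change of Slc37a4 with cort on the HPD differed between the tissues by 1.38 (liver minus eWAT, adjusted p = 0.017 from edgeR). In the liver library that was left out, Veh HPD replicate 4, Pck2 was at 15.8 CPM, against at most 2.88 CPM in the other 15 liver libraries.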

How the results depend on the processing

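Of the 10 called results for single genes, 247 of 256 alternatives kept the direction and the call, 9 kept the direction and lost the call, and 0 reversed. Many of these fits left out 1 library, in part from a group that does not enter the comparison. Such a library acts only through the shared spread, scaling and filter, so a kept call is easier there. The lost calls were Pcx and Mdh1 for cort on the NPD in eWAT and the tissue difference of Slc37a4, each without 1 library. Of 115 uncalled results, 13 were called in 28 of 3201 alternatives and the sign was the other in 131. With voom and quality weights, 4 genes were called for cort on the HPD in liver. DESeq2 called 2 for diet under veh in liver and 1 each for the liver interaction and for the tissue difference with cort on the NPD. No filter on low counts called 1 for the liver interaction, voom with quality weights 1 and fewer groups 1 for the tissue difference with cort on the NPD, and fewer groups 3 for diet under cort in eWAT. Leaving out 1 library gave 0 to 1 called genes for diet under veh and the interaction in liver, 0 to 3 for cort on the NPD, 0 to 2 for cort on the HPD and 1 to 2 for diet under cort in eWAT. It gave 0 to 1 for the tissue difference with cort on either diet. The causes were not tested.

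The replicate block called 1 gene for the liver interaction (Pcx, -1.23, adjusted p = 0.04999) and 1 for the tissue difference with cort on the NPD (Slc37a4, 0.91, adjusted p = 0.048). Same-numbered libraries correlated at -0.131 to 0.253 in their deviations from group means, and no comparison had every pair over 0.1. These correlations cannot tell whether same-numbered libraries share a mouse or a batch, and the labels do not say.

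Library totals alone moved the median of all genes by over 0.1 for cort on the HPD (-0.24), diet under cort (-0.18) and the interaction (-0.22) in liver, cort on the NPD in eWAT (-0.11), and the tissue differences with cort on the HPD (-0.24) and in diet under cort (-0.29). With all 16 liver libraries, 998 genes were called for cort on the NPD (1565 with 15), 371 for diet under cort (729), 7 for diet under veh (21) and 1 for the interaction (14). The 60-gene list had 7 calls with totals and 2 with all 16 libraries for diet under cort in liver, against 4, and 7 and 5 for the tissue difference with cort on the HPD, against 3. Pck2 and G6pc3 in liver, at 4 to 66 counts, limit what could be detected for them.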
